A study of Mus musculus with 10 samples.

Results

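The genes described here encode the glutathione, thioredoxin and peroxide defence system of the mouse. They were chosen by symbol: the glutathione S-transferases (Gsta, Gstk, Gstm, Gsto, Gstp, Gstt, Gstz and the microsomal Mgst genes), the glutathione peroxidases (Gpx), the peroxiredoxins (Prdx), symbols starting with Txn or Glrx, Sod1 to Sod3, Cat, Gsr, Gclc, Gclm and Gss. The rule found 64 genes among the 18193 read on the arrays, and 62 of them were above background in at least 1 sample group. The rule used no measured value.

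Glutathione is a small thiol made in 2 steps, by glutamate-cysteine ligase and glutathione synthetase, and kept reduced by glutathione reductase with NADPH. Glutathione peroxidases use it to reduce hydrogen peroxide and lipid peroxides, and glutathione S-transferases join it to reactive electrophiles. The thioredoxin system runs in parallel: thioredoxin reductases reduce thioredoxins, which in turn keep peroxiredoxins and other proteins reduced. Superoxide dismutases turn superoxide into hydrogen peroxide, which catalase splits. In the testis several of these genes have forms used mainly by germ cells, such as Txnrd3, a reductase with a glutaredoxin domain, and Gpx4, a selenoprotein that also forms part of the sperm midpiece.

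RNA was measured on microarrays in 5 groups from C57BL/6 males. Germ cells were separated on Percoll density gradients. Fraction 2 at day 8 after birth gave the spermatogonia, which are mitotic germ cells. Fraction 5 at day 12 gave the leptotene/zygotene spermatocytes of early meiotic prophase, and fraction 8 at day 15 gave the pachytene spermatocytes, whose homologous chromosomes are synapsed. The other groups, both of day 15, were the whole testis and a somatic mix of 11 tissues: skin, spleen, muscle, kidney, brain, heart, lung and liver, with the stomach, the intestine and the colon. The labels name no transgene or mutation in any group, and the series title names a screen for chromosome segregation genes. Each group had 2 samples, but they were hybridised to 2 array designs with different probe sets, 1 array per group and design. Each gene was therefore read from 1 array per group, and a difference between groups has no replicate behind it and no p-value, except for Txndc12, whose probe set is on both designs. Stage, age and gradient fraction changed together and cannot be told apart. The arrays measured RNA per amplified sample, so fewer cells of a type and less RNA per cell cannot be told apart either.

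Values are scaled signals: the deposited intensity of a probe set (a group of probes read as 1 value) on a linear scale, divided so that the 5 arrays of a design share a 2% trimmed mean. Signals depend on the probes, so they are compared between groups and not between genes. The floor was 87.4 on the first design and 47.0 on the second, and a difference against a group below it is a lower bound. A difference of at least 4-fold (2 on the log2 scale) was called. The 100 probe sets placed on both designs repeat each comparison, and from their gaps the 95% limit of a single log2 difference was 0.35 for leptotene/zygotene against spermatogonia, 0.41 for the step from there to pachytene, 0.46 for pachytene against whole testis and 0.57 for whole testis against the somatic mix. Those probe sets are bright (median signals from 796 to 1059), so the limits can be too narrow for dim genes. The labels do not say whether the 2 samples of a group were prepared separately, so the limits may cover technical spread only. A difference inside the limit is given as a value only.

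The pachytene fraction carried its own markers, and the 2 earlier fractions were less distinct. The summed signal of 8 pachytene markers (such as Ldhc, Pgk2 and Hspa2) was 812, 3885 and 56076 in the spermatogonial, leptotene/zygotene and pachytene fractions, and all 8 were above the floor in the last. The 8 spermatogonial markers were all above the floor in spermatogonia, but the summed signal of the 7 read on the first design was higher in leptotene/zygotene (9304) than in spermatogonia (5797), and it was 1386 in pachytene. Markers particular to leptotene/zygotene were not listed. Somatic cells of the testis were present too. The summed signal of 12 Sertoli cell markers was 38940.3 and 34029 in the first 2 fractions and 9015 in pachytene, with 12, 12 and 11 of them above the floor. That of 4 Leydig cell markers was 7725, 4049 and 401 (4, 4 and 3 above the floor), that of 8 peritubular and stromal markers 30419, 13693 and 8109 (7, 7 and 6), and that of 7 macrophage markers 962, 1917 and 4058 (5, 7 and 7). The part these cells have in the values below was not tested. The first-design whole testis array stood apart: it carried transcripts of other organs that were below or close to the floor in the 3 fractions, among them Alb (albumin) at 3907, Apoa1 (an apolipoprotein of liver and intestine) at 9350.0, Fabp2 (an intestinal fatty acid binding protein) at 6887, Myl1 (a muscle myosin light chain) at 1001 and Ttr (transthyretin) at 703. The summed signal of 9 organ markers was 22584 there, 76376 in the somatic mix and from 554 to 1067 in the fractions. These markers were read on the first design only, so the second-design whole testis array was not checked for them. Values that rest on whole testis are therefore given beside those of the fractions.

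Over the 5 groups, 47 of the 64 genes were above the floor in every group. The somatic mix had the highest signal for 33 of the 62 genes above the floor (53.2%, against 32.9% of all 15774 genes above the floor), and pachytene for 10 (16.1%, against 24.9%). Spermatogonia were highest for 11 (17.7%, against 17.6%), leptotene/zygotene for 7 (11.3%, against 16.2%) and whole testis for 1 (1.61%, against 8.37%). The 10 highest in pachytene were Gpx4, Gstm5, Gsto2, Gstt3, Gstt4, Sod2, Txndc12, Txndc9, Txnl4b and Txnrd3. These counts are a description of 1 array per group, and a first place can rest on a difference inside the error. Txndc2 and Txndc8, thioredoxin-domain genes known from spermatids, were below the floor in every group, and 4 of 5 spermatid markers were too.

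In leptotene/zygotene against spermatogonia few genes of any kind were called. None of the 58 measured members was called in either direction. Of all 12917 genes measured, 0.31% were called higher and 0.279% lower, so 0 of 58 is near those shares. The median difference of the members was -0.11, against 0.02 for all genes. Inside the 4-fold threshold, 6 members were higher and 18 lower by more than the error limit. How many of all genes passed this limit was not counted, so these numbers have no background share. Both subunits of glutamate-cysteine ligase, the first enzyme of glutathione synthesis, were among the higher ones: the catalytic subunit gene Gclc had 250.0 in spermatogonia and 423 in leptotene/zygotene (log2 difference 0.76), and the modifier subunit gene Gclm had 179 and 327 (0.87). A further Gclc probe set gave 1.08 and a dimmer Gclm probe set on the second design -0.12. Gss, the second enzyme of the pathway, had 209.5 and 288 (0.46), and its probe set on the second design gave -0.06. Gsto2 (1.27), Txnrd3 (0.66) and Gstt4 (at least 0.94, from below the floor) were the others. The lower ones were led by Gpx8, a peroxidase of the endoplasmic reticulum, with 2156 and 695 (-1.63), and by its relative Gpx7 with 902 and 342 (-1.40). Gstt1 (-1.34), Gsta2 (-1.18) and Gpx1 (-1.01) followed. The summed stromal, Leydig and Sertoli markers were lower in leptotene/zygotene as well, and the summed macrophage markers were higher, as given above. The part of these cells in the differences was not tested.

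At the step to pachytene many of these genes moved, mostly down. The 3′ control probe set for 18S ribosomal RNA was lower in pachytene too, at 427 against 1801 on the first design and 342 against 1814 on the second, and its part in the differences was not tested. Of 56 members measured in pachytene against leptotene/zygotene, 5 were called higher (8.93%) and 10 lower (17.9%). Of all 13518 genes measured, 8.7% were called higher and 9.34% lower. The share called higher is near that of all genes. The members' median difference was -1.15, against -0.22 for all genes. By more than the error limit, 35 members were lower and 13 higher, and the share of all genes beyond it was not counted. Median scaling and scaling on the shared probe sets moved the median of all genes up by 0.34 and 0.39, and quantile normalization by 0.21. The members' median stayed below that of all genes by 0.93 as scaled here and by 0.72 to 1.09 under the 4 other scalings. The split of 5 higher and 10 lower became 6 and 7 with median scaling, 6 and 6 with scaling on the shared probe sets, 4 and 11 with quantile normalization and 5 and 15 with the values as deposited.

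**Figure D1:**
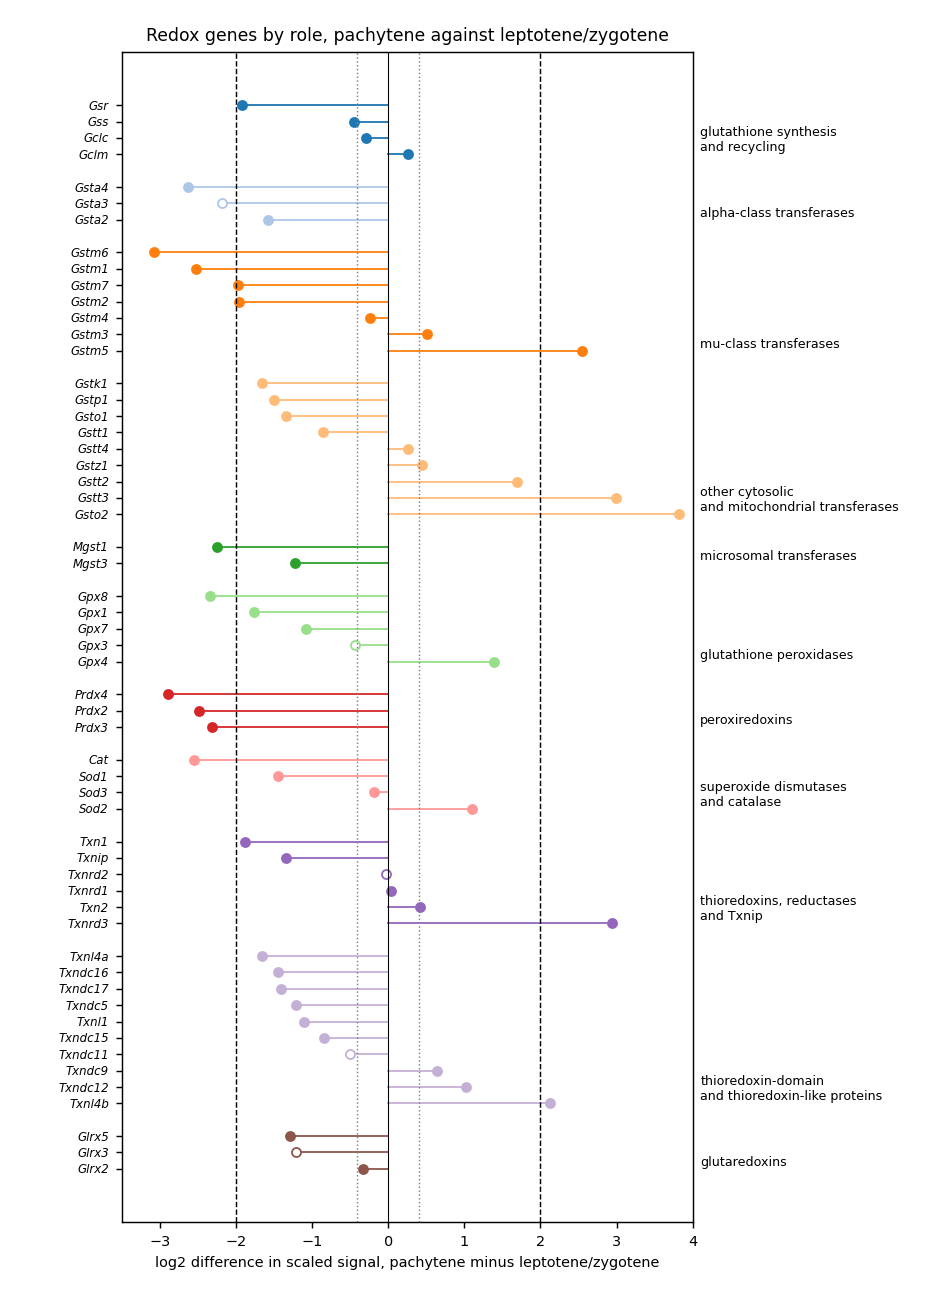
Log2 difference in scaled signal between pachytene and leptotene/zygotene for the 56 measured members, grouped by role; 1 array per group. Filled points were above the floor in both groups and open points are lower bounds. Dashed lines mark 4-fold and dotted lines the 95% error limit of 0.41. Most points lie left of 0, with Gsto2, Gstt3, Txnrd3, Gstm5 and Txnl4b right of the upper 4-fold line.

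The 5 genes called higher in pachytene were 3 cytosolic glutathione transferases (Gsto2, Gstt3 and Gstm5), a thioredoxin reductase (Txnrd3) and a thioredoxin-like splicing protein (Txnl4b). Txnrd3 encodes thioredoxin-glutathione reductase, which can reduce both thioredoxin and glutathione disulphide. It had 449 in spermatogonia, 708 in leptotene/zygotene, 5444 in pachytene, 2679 in whole testis and 124 in the somatic mix. Pachytene and whole testis were the 2 highest groups, and the pachytene signal was 7.69-fold that of leptotene/zygotene (log2 2.94). Its other 2 probe sets, on the same arrays, gave 3.21 and 2.90. Gsto2 encodes an omega-class transferase with dehydroascorbate reductase activity. It was read on the second design with 86.3 in spermatogonia, 209 in leptotene/zygotene, 2955 in pachytene, 861 in whole testis and 44.9 in the somatic mix. The pachytene value was 14.2-fold that of leptotene/zygotene (log2 3.82), and the somatic mix was below the floor.

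Gstm5, a mu-class transferase that in the mouse is known from testis and brain, had 2859.8 in spermatogonia, 2979 in leptotene/zygotene, 17371 in pachytene, 9104 in whole testis and 2074 in the somatic mix. Spermatogonia, leptotene/zygotene and the somatic mix lay close together, and pachytene was 5.83-fold above leptotene/zygotene (log2 2.54). Gstt3, a theta-class transferase, had 171 in spermatogonia, 114 in leptotene/zygotene, 913 in pachytene, 485 in whole testis and 337 in the somatic mix, a pachytene difference of 3.0 (7.98-fold). Its leptotene/zygotene signal was close to the floor. Txnl4b, a thioredoxin-like protein that takes part in pre-mRNA splicing and not in peroxide removal, had 233 in spermatogonia, 239 in leptotene/zygotene, 1045 in pachytene, 341 in whole testis and 245 in the somatic mix on the second design. That gave a difference of 2.13 (4.38-fold), which quantile normalization moved under the threshold to 1.72.

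**Figure D2:**
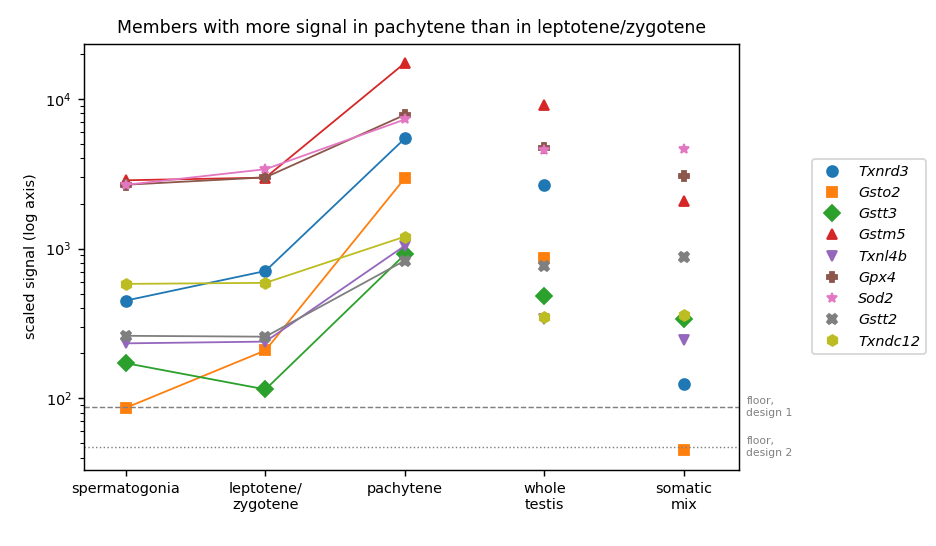
Scaled signal (log axis) of 9 members with more signal in pachytene than in leptotene/zygotene, 1 array per group; lines join the 3 germ cell fractions, and dashed and dotted lines are the floors of the 2 designs. Txnrd3 goes from 708 to 5444 and Gsto2 from 209 to 2955, and both are lowest in the somatic mix. Signals of different genes come from different probes and set no order between genes.

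The windows before the RefSeq start sites of these 5 genes are printed because their signals went up together, with that of Gstm6, a gene of the same cluster as Gstm5 that was called lower. Each is the 250 bases before the start, 5′ to 3′ on the gene's strand, from GRCm38.p6. Where a gene has several listed starts, 1 window is shown. Capitals mark a match to either of the motifs searched on both strands: the antioxidant response element core TGACNNNGC, to which NRF2 binds, and the cyclic AMP response element TGACGTCA, to which CREB and the germ cell factor CREM bind.
Gstm5 (chr3:107895604-107895853, plus strand): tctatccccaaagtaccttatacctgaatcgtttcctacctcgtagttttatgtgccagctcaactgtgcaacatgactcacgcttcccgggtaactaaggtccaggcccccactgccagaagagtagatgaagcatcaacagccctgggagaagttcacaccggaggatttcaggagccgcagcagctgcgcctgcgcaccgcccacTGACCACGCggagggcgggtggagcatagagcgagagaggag
Gsto2 (chr19:47865295-47865544, plus strand): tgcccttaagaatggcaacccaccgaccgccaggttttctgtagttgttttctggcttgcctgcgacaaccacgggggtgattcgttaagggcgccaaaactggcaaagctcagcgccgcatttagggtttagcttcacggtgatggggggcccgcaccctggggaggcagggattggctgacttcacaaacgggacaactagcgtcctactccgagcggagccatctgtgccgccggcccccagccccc
Gstt3 (chr10:75781423-75781672, minus strand): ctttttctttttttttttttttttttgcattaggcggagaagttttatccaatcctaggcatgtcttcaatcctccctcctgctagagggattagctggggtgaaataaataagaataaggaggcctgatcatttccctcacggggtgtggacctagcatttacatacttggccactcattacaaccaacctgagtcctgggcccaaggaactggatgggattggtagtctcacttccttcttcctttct
Txnl4b (chr8:109565642-109565891, plus strand): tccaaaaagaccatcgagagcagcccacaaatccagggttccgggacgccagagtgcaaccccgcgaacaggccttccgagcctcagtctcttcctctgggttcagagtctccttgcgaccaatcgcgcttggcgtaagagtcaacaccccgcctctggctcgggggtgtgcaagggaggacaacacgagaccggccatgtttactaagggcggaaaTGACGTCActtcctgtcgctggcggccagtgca
Txnrd3 (chr6:89643738-89643987, plus strand): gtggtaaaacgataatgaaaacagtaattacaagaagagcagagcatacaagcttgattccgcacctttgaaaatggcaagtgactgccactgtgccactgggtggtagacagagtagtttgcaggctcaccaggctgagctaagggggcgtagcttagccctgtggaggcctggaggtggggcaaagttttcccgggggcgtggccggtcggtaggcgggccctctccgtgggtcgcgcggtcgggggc
Gstm6 (chr3:107953467-107953716, minus strand): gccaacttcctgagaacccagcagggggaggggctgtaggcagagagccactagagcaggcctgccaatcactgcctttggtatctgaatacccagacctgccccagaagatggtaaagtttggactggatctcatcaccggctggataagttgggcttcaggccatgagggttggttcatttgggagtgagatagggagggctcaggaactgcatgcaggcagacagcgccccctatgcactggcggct
Gstm5 held 1 antioxidant response element core, starting 42 bases before the start site, and Txnl4b held 1 cyclic AMP response element, starting 33 bases before it. Neither motif was in these windows of Gsto2, Gstt3, Txnrd3 or Gstm6. Of the 64 members 57 had a window of this length, with 79 windows in all. The antioxidant core was in 10 of the 79 (12.7%, against 10.2% of all 32851 windows of that length), in 10 genes: Gclm, Gsta3, Gstm5, Gstm7, Mgst1, Sod1, Txndc11, Txndc2, Txndc5 and Txnrd1. Txndc2 was below the floor, and the 9 others measured ranged in pachytene from Gstm5 at 2.54 to Mgst1 at -2.25. Gstm7, the protein-coding gene next to Gstm5, holds the core and stood at -1.98. The cyclic AMP element was in 1 member window (1.27%, against 1.55% of all). No match of the 2 motifs overlapped in a member window. The median GC content was 56.4% in member windows and 52.4% in all.

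Besides the called ones, Gstt2, Gpx4, Txndc12, Txndc9, Gstm3, Gstz1, Txn2 and, on the probe set read, Sod2 were higher in pachytene by more than the error limit. With the values as deposited, Txndc9 (0.30), Gstm3 (0.17), Gstz1 (0.11) and Txn2 (0.07) were under that limit of 0.41. Under the other scalings they stayed above it. Gpx4, the peroxidase that reduces lipid peroxides in membranes, had 2669.8 in spermatogonia, 2992 in leptotene/zygotene, 7829 in pachytene, 4689.7 in whole testis and 3039 in the somatic mix (log2 1.39 in pachytene against leptotene/zygotene), and its other probe set gave 1.66. Pachytene was the highest of the 5 groups on both. Gstt2, a second theta-class gene, had 261 in spermatogonia, 258 in leptotene/zygotene, 832 in pachytene, 759 in whole testis and 874 in the somatic mix (1.69), so that pachytene, whole testis and the somatic mix were alike and the earlier fractions low.

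Txndc12, an oxidoreductase of the endoplasmic reticulum, is the 1 member whose probe set is on both designs, so it has 2 arrays per group. It had 581 in spermatogonia, 590.0 in leptotene/zygotene, 1202 in pachytene, 347 in whole testis and 362 in the somatic mix on the first design. On the second the values in the same order were 636, 658, 1451, 266 and 415. Pachytene was highest on both. Over the 10 arrays the log2 difference of pachytene against leptotene/zygotene was 1.08 (95% interval 0.73 to 1.44, SE 0.17, n = 2 per group, higher on both designs, limma adjusted p = 3.71e-06 over the shared probe sets). Against whole testis it was 2.12 (1.76 to 2.48, limma adjusted p = 1.19e-10). Leptotene/zygotene against spermatogonia differed by 0.04 (-0.32 to 0.39, limma adjusted p = 0.91). The labels do not say whether the 2 samples of a group were prepared separately, so these p-values measure only the spread between samples, which may be technical.

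The mu-class transferases form 1 cluster on chromosome 3, in the order Gstm5, Gstm7, Gstm6, Gstm3, Gstm2, Gstm1 and Gstm4. No other protein-coding gene lies between them in the RefSeq table. Gstm5 at the end of the row went up in pachytene, and Gstm7 and Gstm6 beside it went the other way. Gstm6 had 3821 in spermatogonia, 2793 in leptotene/zygotene, 331 in pachytene, 675 in whole testis and 31.3 in the somatic mix, a pachytene signal 8.44-fold below leptotene/zygotene (log2 -3.08). Gstm1 had 9444 in spermatogonia, 6634 in leptotene/zygotene, 1157 in pachytene, 2571 in whole testis and 1824 in the somatic mix (-2.52), and its other 3 probe sets gave -1.33, -1.43 and -2.54. Averaging them moved Gstm1 under the threshold, to -1.96. Gstm7 (1344, 1400.4, 356, 1061 and 182 in the same order of groups, -1.98) and Gstm2 (7069.6, 4985, 1286, 2222 and 674, -1.96) stood just short of 4-fold. A dim second probe set of Gstm7 went the other way, with 0.48. Gstm3 (191, 178, 254, 211 and 785) and Gstm4 (145, 109.9, 93.2, 113 and 158) were close to the floor in the fractions, with differences of 0.51 and -0.24. Another Gstm3 probe set, without a suffix mark, was below the floor in every group. Mu-class sequences are alike, and the probe sets read for Gstm1 and Gstm3 bear the manufacturer's _x and _s marks for probes that can match other transcripts. The levels of single Gstm genes are uncertain to that extent.

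**Figure D3:**
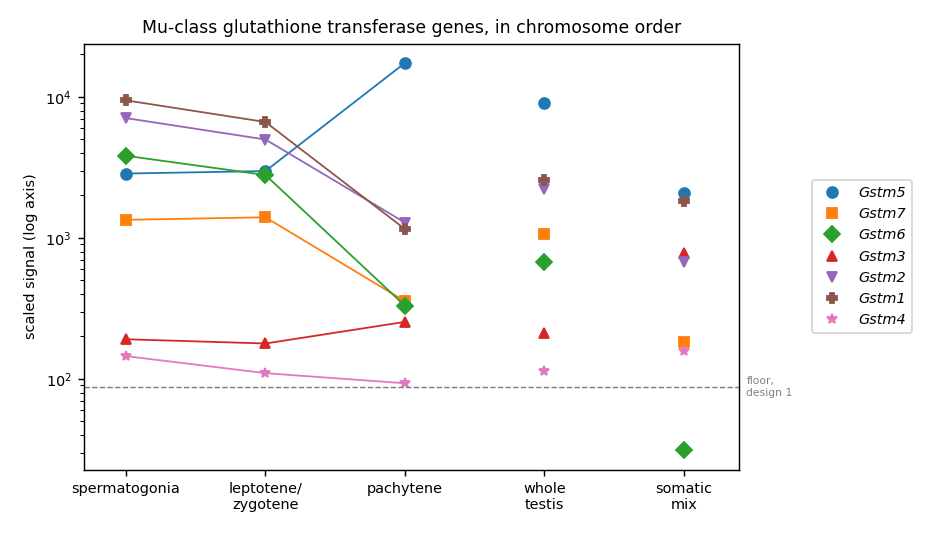
Scaled signal (log axis) of the 7 mu-class transferase genes in their order on chromosome 3, 1 array per group; lines join the germ cell fractions and the dashed line is the floor. Gstm5 goes from 2979 in leptotene/zygotene to 17371 in pachytene, while Gstm1, Gstm2, Gstm6 and Gstm7 go down. Gstm6 is below the floor in the somatic mix.

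Neighbours among the protein-coding genes differed in other clusters too. On chromosome 19 Gsto1 lies beside Gsto2. Gsto1 had 853 in spermatogonia, 505 in leptotene/zygotene, 199 in pachytene, 755 in whole testis and 3332 in the somatic mix and was lower in pachytene than in leptotene/zygotene (-1.35), where Gsto2 was higher. On chromosome 10 the theta-class genes follow each other as Gstt3, Gstt1, Gstt4 and Gstt2. Gstt3 and Gstt2 were higher in pachytene, Gstt1 was lower (550.4, 217, 119.5, 307 and 704, -0.86) and Gstt4 had 0.26. Of the alpha class, whose members detoxify lipid aldehydes, Gsta4 was called lower (7841, 6917, 1117, 4073 and 1188, -2.63), Gsta3 likewise as a bound (353, 396, 41.9, 132 and 1266, at least 4.54-fold lower), and Gsta2 stood at -1.58 (1815, 802, 268, 725 and 1554). A second, dim Gsta3 probe set gave -0.09. The remaining cytosolic and mitochondrial genes, Gstk1 (-1.66), the pi-class Gstp1 (4251, 3827, 1348, 2984 and 7898, -1.51) and Gstz1 (0.45), were not called, and Gstp3 was above the floor only in the somatic mix.

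Of the microsomal transferases, which sit in membranes, Mgst1 was called lower in pachytene. It had 4977 in spermatogonia, 3826 in leptotene/zygotene, 803 in pachytene, 3671 in whole testis and 5626 in the somatic mix (-2.25). Median scaling moved it to -1.88, and averaging with a second probe set that is below the floor in every group moved it to -0.28. Mgst3 had 583, 479, 205, 248 and 2173 (-1.23), and Mgst2 was at the floor in both fractions.

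All 3 peroxiredoxins measured were called lower in pachytene. These enzymes reduce hydrogen peroxide with electrons from thioredoxin. Prdx4, the X-linked peroxiredoxin of the endoplasmic reticulum, had 4665 in spermatogonia, 5122 in leptotene/zygotene, 690.4 in pachytene, 2796 in whole testis and 3418 in the somatic mix. Its pachytene signal was 7.42-fold below leptotene/zygotene (log2 -2.89), and 2 dimmer probe sets gave -2.79 and -0.64. The cytosolic Prdx2 had 4608 in spermatogonia, 3774 in leptotene/zygotene, 671 in pachytene, 1919 in whole testis and 4970.3 in the somatic mix (-2.49), and a probe set near the floor gave -0.01. The mitochondrial Prdx3 had 902 in spermatogonia, 763 in leptotene/zygotene, 153 in pachytene, 249.6 in whole testis and 678 in the somatic mix (-2.32), which median scaling, quantile normalization and the shared probe sets moved to between -1.95 and -1.80. All 3 were lowest in pachytene of the 5 groups. Prdx1 and Gsta1 were on probe sets that name several genes and were not used here, and Prdx5, Prdx6 and Gstp2 were not analysed here.

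**Figure D4:**
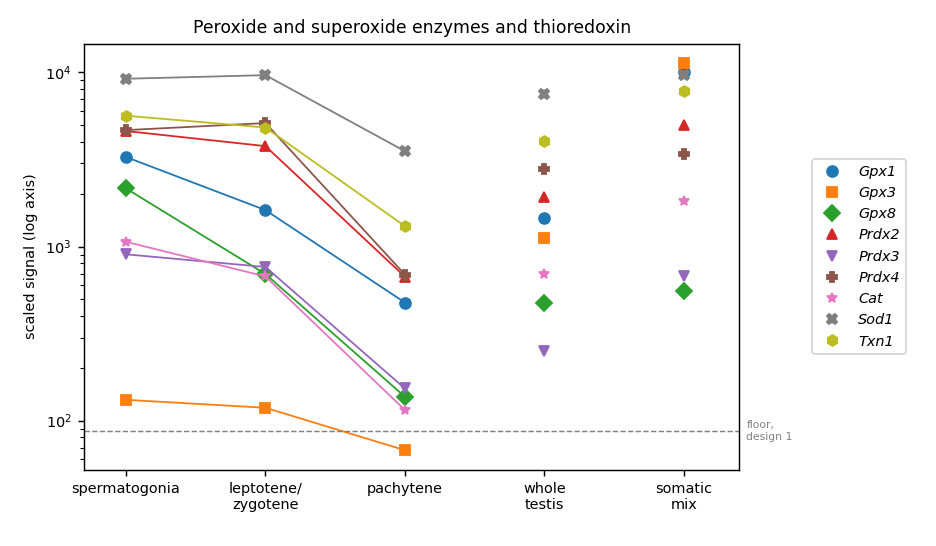
Scaled signal (log axis) of 8 peroxide and superoxide enzyme genes and the thioredoxin gene Txn1, 1 array per group; lines join the germ cell fractions and the dashed line is the floor. On the probe sets read, each line drawn ends lower in pachytene than in leptotene/zygotene, for example Cat at 673 and 115. The plot leaves out Gpx4 (from 2992 to 7829) and Sod2 (from 3391 to 7292), which were higher in pachytene on the probe sets read. The shared direction therefore holds for the genes plotted and not for all enzymes of these kinds. Gpx3 is high only in whole testis (1127) and the somatic mix (11328).

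Catalase went the same way. Cat had 1065 in spermatogonia, 673 in leptotene/zygotene, 115 in pachytene, 696 in whole testis and 1829 in the somatic mix, a pachytene signal 5.85-fold below leptotene/zygotene (log2 -2.55). Pachytene was lowest and the somatic mix highest. A second Cat probe set, below the floor in pachytene, gave a bound of -1.20. Among the glutathione peroxidases Gpx8 was called lower (2156, 695, 137, 474 and 559, -2.34), but it fell short of 4-fold under median scaling (-1.97), the shared probe sets (-1.92) and quantile normalization (-1.82). Gpx1, the cytosolic peroxidase of most tissues, had 3267 in spermatogonia, 1619 in leptotene/zygotene, 477 in pachytene, 1456 in whole testis and 10115 in the somatic mix (-1.76). Gpx7 had 902, 342, 162, 209 and 256 (-1.08). Gpx2 (16.5, 10.0, 28.7, 52.7 and 445) and Gpx6 (36.4, 59.7, 32.4, 39.4 and 175) were above the floor only in the somatic mix.

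The superoxide dismutases depended on the probe set. The cytosolic Sod1 had 9202 in spermatogonia, 9651 in leptotene/zygotene, 3532 in pachytene, 7511 in whole testis and 9687 in the somatic mix, a pachytene difference of -1.45. A second-design probe set gave 7777, 9173, 1520.0, 6508 and 7078 in the same order of groups, a difference of -2.59. Another first-design probe set went the other way with 271, 340.5, 1306, 878 and 249, a difference of 1.94. The mitochondrial Sod2 had 2667 in spermatogonia, 3391 in leptotene/zygotene, 7292 in pachytene, 4543 in whole testis and 4617 in the somatic mix (1.10), and a second probe set on the first design gave 1.24. On the second design another Sod2 probe set had 368, 400.2, 129.7, 249.7 and 889, a difference of -1.62. For both genes the direction is not settled by these arrays. The extracellular Sod3 was close to the floor or below it in every group (98.1, 104, 92.0, 11.8 and 74.5).

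**Figure D5:**
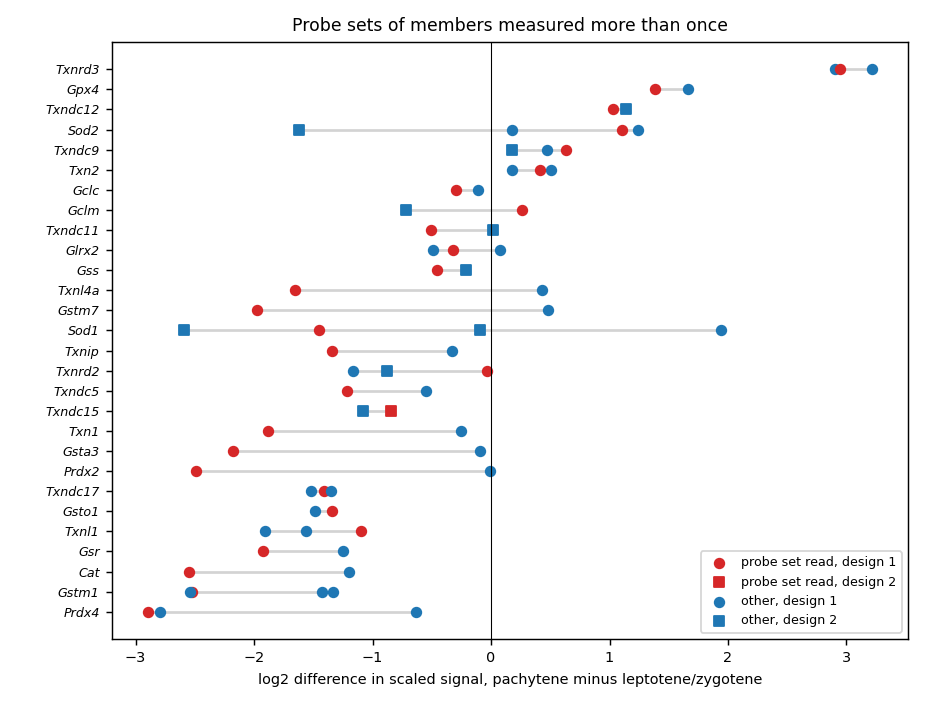
Log2 difference between pachytene and leptotene/zygotene for every measured probe set of the 28 members with more than 1, by design (circles first, squares second); red marks the probe set read for the gene and grey bars join the probe sets of a gene. The 3 Txnrd3 probe sets lie together, and those of Sod1, Sod2, Gstm7 and Txnl4a lie on both sides of 0 and more than 1 apart.

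Of the 28 members with at least 2 measured probe sets, 21 had all of them in the same direction in this comparison. Apart from Sod1, Sod2 and Gstm7, the member with opposite probe sets more than 1 apart was Txnl4a, a splicing protein related to Txnl4b (-1.65 and 0.43).

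The enzymes that make and recycle glutathione were not called in this step. Gclc had 250.0 in spermatogonia, 423 in leptotene/zygotene, 345 in pachytene, 348 in whole testis and 319 in the somatic mix (-0.30). Gclm had 179 in spermatogonia, 327 in leptotene/zygotene, 392 in pachytene, 127 in whole testis and 467 in the somatic mix (0.26), and Gss 209.5, 288, 210.4, 228 and 712 (-0.45, turned to 0.09 by quantile normalization). Glutathione reductase, Gsr, had 339 in spermatogonia, 404 in leptotene/zygotene, 107 in pachytene, 212 in whole testis and 313 in the somatic mix, which is 3.79-fold lower in pachytene (-1.92) and just short of the threshold, and a second probe set gave a bound of -1.25. In pachytene Gsr and Txn1 were thus lower and Txnrd3 higher.

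The main cytosolic thioredoxin, Txn1, had 5645 in spermatogonia, 4827 in leptotene/zygotene, 1310.1 in pachytene, 4037 in whole testis and 7785 in the somatic mix (-1.88). The mitochondrial Txn2 had 443, 434, 578, 225 and 794 (0.41). Of the other reductases, the cytosolic Txnrd1 was level across the fractions (422, 390.2, 401, 307 and 675, 0.04), and the mitochondrial Txnrd2 was near the floor (75, 89.3, 64.3, 52.5 and 161). A second Txnrd2 probe set gave 169, 196, 12.0, 19.5 and 237, with a bound of -1.16 in pachytene. Txnip, an inhibitor of thioredoxin, had 1423, 1423, 560.1, 892 and 998 (-1.35). Of the 10 thioredoxin-domain and thioredoxin-like genes measured, Txnl4b was the 1 called, and the 10 ranged from -1.65 to 2.13. Txndc9, which binds a chaperonin, was higher on all 3 probe sets (0.64, 0.47 and 0.18), the last inside the error limit. The 3 glutaredoxins measured ranged from -1.29 for Glrx5 to -0.32 for Glrx2.

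Genes that serve the same system without being members were called at shares near those of all genes. Of 59 such genes, 56 were read and 44 measured in pachytene against leptotene/zygotene, with 4 called higher (9.09%, against 8.7% of all genes), 5 lower (11.4%, against 9.34%) and a median of -0.86, against -0.22. Of 5 regulators, Nfe2l2, the gene of NRF2, had 1330.3 in spermatogonia, 1090.2 in leptotene/zygotene, 182 in pachytene, 844 in whole testis and 819 in the somatic mix (log2 -2.58). Bach1, a repressor at the same sites, was called lower as well (-2.24), while Keap1, which holds NRF2 back, was higher without a call (391, 359.7, 912, 378 and 404, 1.34). Of 10 NADPH genes, 9 were read, with Pgd (-2.68) and Taldo1 (-2.47) of the pentose phosphate pathway called lower and Nnt, a mitochondrial transhydrogenase, called higher (2.16). Sephs2, which makes the selenium donor for selenoproteins such as Gpx4 and Txnrd3, was called higher, with 326 in spermatogonia, 724 in leptotene/zygotene, 4123 in pachytene, 2318 in whole testis and 1059 in the somatic mix (2.51). The other calls were Hagh, the second enzyme of the glutathione-dependent glyoxalase pathway (778, 886, 6857, 2806 and 2511, 2.95), Nme8, a thioredoxin-domain protein of sperm and cilia (at least 3.74), and Abcc1, an exporter of glutathione conjugates (-2.56).

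Markers of Sertoli, Leydig and stromal cells were mostly lower in this step and those of macrophages higher. Of 12 Sertoli markers 7 were called lower, with a median of -2.43. Of 4 Leydig markers 2 were called lower, Cyp17a1 (-4.19) and Hsd3b1 (-3.49), and the median of the 4 was -2.72. Of 7 stromal markers measured 2 were called lower, with a median of -1.12. The 7 macrophage markers were all higher by more than the error limit without a call, with a median of 0.89. Whether the lower redox signals in pachytene came from germ cells or from fewer somatic cells was not tested.

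Pachytene against whole testis sets the cells beside the tissue of the same age. No member was called higher and 6 of 58 measured (10.3%) were called lower. Of all 13841 genes measured, 2.35% were called higher and 4.39% lower. The members' median was -0.63, against -0.18 for all genes. The split of 0 and 6 became 3 and 3 with median scaling, 2 and 10 with the values as deposited and 1 and 3 with the shared probe sets. Median scaling moved the median of all genes by 0.35, quantile normalization by 0.19 and the shared probe sets by 0.16. Lower in pachytene were Cat (-2.60), Mgst1 (-2.19), Prdx4 (-2.02), Gstk1, a peroxisomal and mitochondrial transferase (374, 283, 89.6, 384 and 1383, -2.10), Gpx3 and Gpx5. Mgst1, Gstk1 and Prdx4 fell short of the threshold under median scaling, at -1.83, -1.74 and -1.66. Cat, Mgst1, Prdx4 and Gstk1 were also higher in both earlier fractions than in pachytene, which use no whole testis array.

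Gpx3 and Gpx5 were high in whole testis but not in any germ cell fraction. Gpx3, the secreted plasma peroxidase made largely in kidney, had 132 in spermatogonia, 119 in leptotene/zygotene, 67.6 in pachytene, 1127 in whole testis and 11328 in the somatic mix. Gpx5, a peroxidase known from the epididymis, had 43.0 in spermatogonia, 54.6 in leptotene/zygotene, 57.5 in pachytene, 605 in whole testis and 66.4 in the somatic mix, and whole testis was the 1 group above the floor. These are at least 12.9-fold and at least 6.92-fold lower in pachytene. The organ transcripts on the same whole testis array are given above, and their part in these values was not tested. The members above whole testis by the most were Txndc12 (1.79), Gsto2 (1.78), Gclm (1.63) and Txnl4b (1.62), and the second Gclm probe set gave -0.94.

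Whole testis against the somatic mix gave 6 members called higher and 9 lower of 61 measured (9.84% and 14.8%). Of all 14987 genes measured, 7.22% were called higher and 5.7% lower. The members' median was -0.72, against -0.07 for all genes. The 6 and 9 became 6 and 6 with median scaling and 7 and 6 with the values as deposited, which moved the median of all genes by 0.18 and 0.24. Higher in testis were Txnrd3 (21.6-fold), Gsto2 (at least 18.3-fold), Gstm6 (at least 7.72-fold), Gpx5 (at least 6.92-fold), Gstm7 (5.82-fold) and Gstm5 (4.39-fold). Gstm7 fell to 0.99 on the log2 scale when its 2 probe sets were averaged. Without the whole testis array, pachytene alone was 43.8-fold above the somatic mix for Txnrd3, at least 62.9-fold for Gsto2 and 8.37-fold for Gstm5. For Gstm6 the earlier fractions stood above the mix, spermatogonia at least 43.7-fold and leptotene/zygotene at least 32.0-fold. For Gstm7 these were 7.37-fold and 7.68-fold. Gpx5 was below the floor in all 3 fractions and in the mix, so its call rests on the whole testis array.

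Lower in testis were Gpx3 (10.1-fold), Gsta3 (9.60-fold), Mgst3 (8.77-fold), Mgst2 (8.70-fold), Gpx1 (6.95-fold), Gpx2 (at least 5.10-fold), Gsto1 (4.41-fold), Glrx (4.13-fold) and Glrx5 (4.01-fold). Mgst2 had 94.5 in spermatogonia, 23.8 in leptotene/zygotene, 5.41 in pachytene, 170.1 in whole testis and 1479 in the somatic mix, and Glrx, the cytosolic glutaredoxin, had 127 in spermatogonia, 65.8 in leptotene/zygotene, 11.5 in pachytene, 222 in whole testis and 917 in the somatic mix. Glrx5, a mitochondrial glutaredoxin of iron-sulphur cluster assembly, had 2740.1 in spermatogonia, 2895 in leptotene/zygotene, 1183 in pachytene, 1408 in whole testis and 5653 in the somatic mix. Glrx, Glrx5 and Gsto1 fell short of 4-fold under median scaling, at -1.85, -1.80 and -1.95. Mgst3 stood at -0.73 when averaged with a probe set below the floor. Without the whole testis array, pachytene was below the somatic mix by at least 130-fold for Gpx3, 21.2-fold for Gpx1, at least 16.9-fold for Mgst2, 16.8-fold for Gsto1, at least 14.5-fold for Gsta3, 10.6-fold for Mgst3, at least 10.5-fold for Glrx, at least 5.10-fold for Gpx2 and 4.78-fold for Glrx5. Txndc12 differed by -0.35 over both designs (95% interval -0.71 to 0.005, limma adjusted p = 0.093). Without the first-design whole testis array the value was -0.54 (limma adjusted p = 0.030) and without the second-design one -0.16 (limma adjusted p = 0.52), each with 1 whole testis array left that is assumed to vary like the other groups.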

How the data were processed

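RNA from 10 samples (5 groups of 2) was measured on Affymetrix arrays of 2 designs, 1 array per group and design. The authors deposited linear intensities, 1 per probe set, and the submitters' processing notes name GCOS 1. How GCOS scaled them and corrected background is not stated in the labels. The deposited intensities had trimmed means of 383 to 484 (first design) and 63.4 to 148 (second design). The number of arrays limits the precision. Labelling used amplified biotin cRNA, per the labels' protocols.

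Scaling made the 2% trimmed means of the arrays of a design equal. On the first design the floor was the 90th percentile of 70 probe sets for chemosensory receptors. The second design had 14 of these, under the minimum of 20, and its floor was its median signal. Probe sets naming 1 gene were kept (20380 and 14661). The brightest probe set by mean log2 signal stood for a gene, taken from the first design if it had one above the floor there. Members came from 121 probe sets, 57 genes from the first design and 7 from the second. Differences are of log2 scaled signal, computed here from the deposited intensities, and at least 4-fold was called; no gene read on 1 design was tested across replicates. For the error, the gaps between the designs over the 100 shared probe sets were squared, averaged, divided by 2 and square-rooted, and 1.96 times this is the 95% limit. Those probe sets were tested with limma 3.58.1 (R 4.3.3) on the 10 arrays, with Benjamini-Hochberg adjustment and a threshold of 0.05. The calls and the fit were tested on simulated data. Pandas 2.3.3 and numpy 2.4.6 were used.

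Named with all levels were members called in any comparison, the 10 with the highest mean log2 signal, Gstm5, and every peroxidase, peroxiredoxin, dismutase, catalase, thioredoxin reductase and glutathione synthesis gene above the floor. The members, gene lists and rules were chosen with earlier results of these data known. Chromosomes and neighbours are from the GRCm38.p6 RefSeq table, as no label names a build for the arrays. Neighbours were read among its protein-coding genes only. Alternatives were quantile normalization, median scaling, deposited values, scaling on the probe sets of both designs, a floor at the 40th or the 60th percentile, adding the floor before log2, averaging a gene's probe sets, using only probe sets without a suffix mark, and leaving out each design. Setting the fractions against the somatic mix was chosen after seeing the data.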

Additional observations from a re-analysis of the deposited data

How the results depend on the processing

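In pachytene against leptotene/zygotene the members' median of -1.15 was -0.73 with quantile normalization and -0.69 with scaling on the shared probe sets. The 10 members called lower, of 56 measured, became 6 of 55 with scaling on the shared probe sets and 6 of 50 with the floor at the 60th percentile. They became 6 of 56 with log2 of signal plus floor and 6 of 44 with plain probe sets only. With plain probe sets 27 of the 29 calls that had a value held, over all comparisons. In pachytene against whole testis, 0 higher and 6 lower became 3 and 3 with median scaling, 2 and 10 with the values as deposited and 1 and 3 with the shared probe sets. The lower count was 3 of 49 measured with the floor at the 60th percentile and 3 of 58 with log2 of signal plus floor.

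Leaving out each design in turn (without replicate 1 or without replicate 2 of every group, so that fewer genes are read) gave ranges. In pachytene against leptotene/zygotene they were 2 to 3 higher, 1 to 10 lower and a median of -1.22 to -0.47. In pachytene against whole testis they were 0 to 1 higher, 1 to 6 lower and a median of -0.79 to -0.033. In whole testis against somatic mix they were 1 to 5 higher and 2 to 8 lower. The first design held most members, and without it 13 or 14 were measured. The cause of the other shifts was not tested. Values as deposited moved the median of all genes in leptotene/zygotene against spermatogonia by 0.11.

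Of the 36 called member differences, 353 alternative values were computed. In 295 the call held, in 58 the direction held and the value fell short of 4-fold, and 0 turned. Those that held include 32 without replicate 2 and 4 without replicate 1. These could not change, because the gene was read on the design that was kept. Most losses were with log2 of signal plus floor (11), the floor at the 60th percentile (10), the mean over probe sets (9) and median scaling (9). The floor at the 40th percentile lost 0.

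For Txndc12, leaving out 1 array at a time gave -0.54 to -0.16 in whole testis against somatic mix. The numbers 1 and 2 mark the array design, so same-numbered arrays share a design. Their deviations correlated by -0.02 to 0.57 over 10 pairs (median 0.24), not over 0.1 in every pair, and the numbers were not taken to pair the samples. With the replicate block the Txndc12 differences were the same as without it (0.04, 1.08, 2.12 and -0.35), with limma adjusted p = 0.90, 3.55e-09, 1.47e-27 and 0.076 in the 4 comparisons, and the shared probe sets called went from 10 to 14, 70 to 70, 68 to 69 and 46 to 52.

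Single differences rest on 1 array per group, and signals near the floor are set by background.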
